A study of Homo sapiens with 18 samples.

Results

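IFI6, IFI27, IFI35, IFI44, IFI44L, EPSTI1, PLSCR1, XAF1 and LAMP3 are 9 interferon-stimulated genes, and they were followed here through 18 RNA-seq libraries of the breast cancer cell line HCC1937. They were found by matching the Ensembl identifiers of the count table, without version, to these symbols. All 9 had 1 row each among the 35044 genes of the table, and all 9 passed the filter on low counts that left 18335 genes for testing. HCC1937-EV is HCC1937, which the study describes as BRCA1 mutated, with an empty vector, although its labels give the genotype as WT. HCC1937-OE-BRCA1 is described as the same line overexpressing BRCA1. From each line there were libraries of untreated cells and of cells kept for 12 h or 24 h in olaparib, an inhibitor of PARP1 (PARPi), and each of these 6 conditions had 3 libraries. The labels list olaparib also for the 0 h libraries, which are treated here as untreated by their time. Both are labelled as HCC1937, and that they share this origin was not tested here. Whether either line is 1 clone, and whether the 3 libraries of a condition came from separate cultures, is not given in the sources used here, so that the p-values measure the spread between these libraries, which may be technical.

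Interferons bind receptors on the cell surface, and the receptors' kinases JAK1 and TYK2 activate transcription factors such as STAT2. With IRF9, STAT2 takes part in a complex that binds the interferon-stimulated response element, a repeat of GAAA in the promoters of many genes. The 9 genes belong to that class but act in different places. IFI6 and IFI27 code for small hydrophobic proteins of 1 family, IFI6 at the endoplasmic reticulum and mitochondria and IFI27 at mitochondria and the nuclear envelope. IFI35 binds NMI in the cytoplasm. IFI44 and IFI44L are neighbouring paralogs with antiviral activity. EPSTI1 was named for its induction in epithelial cells by stroma. PLSCR1 is a membrane protein of the scramblase family that also enters the nucleus, XAF1 binds the apoptosis inhibitor XIAP, and LAMP3 is a lysosomal membrane protein known as a marker of mature dendritic cells.

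The genes lie on 5 chromosomes of GRCh38, by GENCODE release 29. IFI6 (chr1:27666061-27672218, minus strand), IFI44L (chr1:78619922-78646145, plus strand) and IFI44 (chr1:78649796-78664078, plus strand) are on chromosome 1, the last pair 3650 bp apart. PLSCR1 (chr3:146515180-146544864) and LAMP3 (chr3:183122213-183163839) are on the minus strand of chromosome 3 and EPSTI1 (chr13:42886388-42992271) is on the minus strand of chromosome 13. IFI27 (chr14:94104836-94116698) is on the plus strand of chromosome 14 and begins 989 bp from its relative IFI27L1. XAF1 (chr17:6755447-6775647) and IFI35 (chr17:43006725-43014456) are on the plus strand of chromosome 17, IFI35 at 29838 bp from BRCA1 itself. An opposite-strand transcript, PRAL, shares 2535 exonic bp with XAF1. PRAL had 161 counts in all 18 libraries together, and the strand setting of the counting is not given in the sources used here, so reads of the 2 could not be told apart.

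Promoter sequences show what the genes share at their starts. RefSeq (GRCh38.p14) windows from 250 bases before to 50 bases after a start were at hand for 8 of the 9 genes, not for LAMP3. They were searched on both strands for the repeat GAAANNGAAA and for GAAANGAAA, which has 1 base less between the repeats and was added after the sequences had been read. GAAANNGAAA was present for 6 of the 8 genes (75.0%), for 27 of 43 other interferon-stimulated genes with a window (62.8%) and for 1195 of 27305 genes of any kind (4.38%). GAAANGAAA was present for 4 of the 8 genes and for 3.87% of all genes. The stretches below hold the matches, in capitals, so that their number and spacing can be compared between genes. Each is written 5′ to 3′ on the strand of the gene, and TTTCNNTTTC or TTTCNTTTC is a match on the other strand. Stretches that GENCODE exons of other starts reach were kept to 30 bases or fewer.
IFI6 (chr1:27672236-27672388): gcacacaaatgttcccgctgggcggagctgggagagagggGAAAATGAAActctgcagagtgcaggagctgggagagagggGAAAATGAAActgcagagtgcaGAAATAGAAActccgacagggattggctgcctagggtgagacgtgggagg
IFI27 (chr14:94110625-94110654): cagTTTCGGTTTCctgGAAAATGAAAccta
IFI44L (chr1:78620365-78620394): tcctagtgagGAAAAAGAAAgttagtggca
IFI44 (chr1:78649731-78649788): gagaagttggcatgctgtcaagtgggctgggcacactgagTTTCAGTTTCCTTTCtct
EPSTI1 (chr13:42992272-42992301): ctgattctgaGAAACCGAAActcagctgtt
PLSCR1 (chr3:146544667-146544696): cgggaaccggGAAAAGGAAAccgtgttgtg
PLSCR1 (chr3:146544633-146544662): taagattcagGAAACGAAAccaggagccgc
IFI35 (chr17:43006758-43006783): ggatttcacgGAAATGAAAgtggaag
XAF1 (chr17:6756031-6756049): ttgcctgcaaGAAACGAAA

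IFI6 held 3 matches of GAAANNGAAA, of which the 2 farther from the start lie in a repeat of 29 bases. IFI44L held 2, in 2 copies of the same 75 bases, and the one not printed (chr1:78620274-78620303) has the same letters over its 30 bases. In IFI44 both patterns ran into each other on the opposite strand, and in IFI27 a match on each strand lay side by side. IFI35 and XAF1 had the shorter spacing alone, and the second RefSeq start of XAF1 had neither. A match of letters is a description, not a bound site.

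Library totals lay between 15081973 and 17571922 counts. The level of a gene is given in CPM, its counts relative to the TMM-scaled library size, and differences between conditions as log2 fold changes. Their p-values come from the quasi-likelihood test of edgeR, adjusted by Benjamini-Hochberg over all 18335 genes. A gene was called at an adjusted p under 0.05. The shares of all genes called are those of this fit and were not counted for other fits. They are over all 18335 genes, also those with few counts in a line, which could hardly be called there. How many of all genes had no overlap between conditions was not counted, so a lack of overlap describes the named genes alone. BRCA1, the overexpressed gene, had 118 ± 7.70 CPM in untreated HCC1937-EV and 138 ± 24.0 in untreated HCC1937-OE-BRCA1 (SD, n = 3). At 12 h the lines had 110.0 ± 13.2 and 123 ± 7.99 CPM, and at 24 h 94.5 ± 4.47 and 161 ± 7.07. The libraries of the lines overlapped at 0 h and 12 h and were apart at 24 h. Counts of the gene do not separate transcripts of the line's own copy from those of the introduced one. For the protein, the paper reports a truncated BRCA1 in HCC1937-EV, and in HCC1937-OE-BRCA1 the truncated form together with the wild-type form. The lines also differed in the markers of breast epithelium. EPCAM had 1 count and KRT5 8 counts over the 9 HCC1937-EV libraries, against 252 to 352 and 1062 to 1742 CPM in each HCC1937-OE-BRCA1 library. CDH1 did not exceed 1.20 CPM in HCC1937-EV. KRT8 and KRT18 were high in both. Of 9 epithelial markers, 4 averaged at least 1 CPM in HCC1937-EV and 9 in HCC1937-OE-BRCA1. Their summed level was 2889 to 3795 and 7393 to 12464 CPM. Of 5 fibroblast markers, 2 averaged at least 1 CPM in HCC1937-EV and 1 in HCC1937-OE-BRCA1, with COL1A2, DCN and LUM near 0 in both, and the summed level, mostly COL1A1, was 97.1 to 153 against 6.28 to 11.9 CPM. The summed levels of the leukocyte and endothelial markers, like the 9 genes, were higher in HCC1937-OE-BRCA1. Of 6 leukocyte markers 4 were in the table, at a summed 1.15 to 2.59 CPM in HCC1937-EV and 33.8 to 86.7 in HCC1937-OE-BRCA1, where CD14 had 40.6 ± 8.39 CPM untreated, 77.7 ± 4.97 at 12 h and 77.9 ± 7.66 at 24 h (SD, n = 3). Of 4 endothelial markers 3 were in the table, at 1.11 to 2.89 and 17.2 to 27.0 CPM, with PECAM1 at 10.5 ± 0.711, 16.5 ± 2.40 and 19.8 ± 1.07 CPM over time in HCC1937-OE-BRCA1. Their part in the results was not tested. HCC1937-EV thus lacked several defining markers of breast epithelium, and any difference between the lines below cannot be told apart from this one.

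All 9 genes were higher in HCC1937-OE-BRCA1 than in HCC1937-EV before any treatment, and at 12 h and 24 h. No library of one line reached the range of the other for any of them, which was not counted over all genes. Of all genes tested, 39.4% were called higher in HCC1937-OE-BRCA1 at 0 h and 33.3% lower, 38.8% and 34.1% at 12 h and 39.9% and 34% at 24 h. Added up, the 9 genes made 38.0 ± 1.15 CPM of an untreated HCC1937-EV library and 2075 ± 111 CPM of an untreated HCC1937-OE-BRCA1 library (SD, n = 3). In bulk RNA, fewer cells that express a gene and less RNA per cell cannot be told apart.

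**Figure D1:**
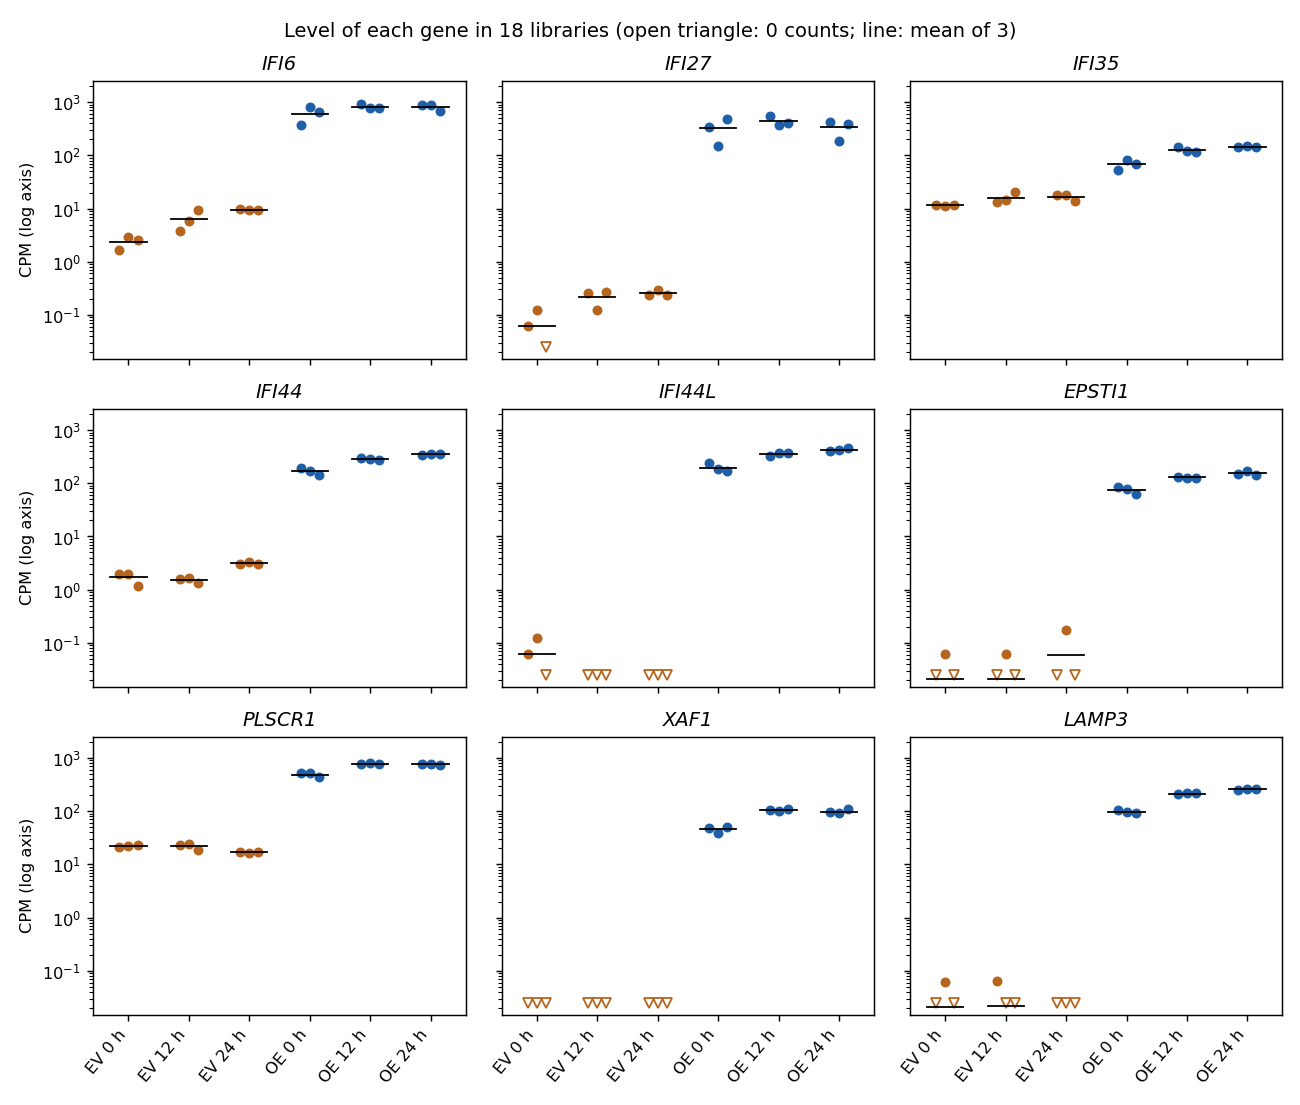
Level of each of the 9 genes in every library, in CPM on a log axis, by cell line and time in olaparib. Points are libraries, black lines are means of 3, and open triangles mark libraries with 0 counts, drawn at the foot of the axis. XAF1 had no count in any HCC1937-EV library and 38.3 to 111 CPM in HCC1937-OE-BRCA1.

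By what HCC1937-EV still contained, the genes fell into 2 sorts. XAF1 had 0 counts in all 9 HCC1937-EV libraries. IFI44L had 3 counts over the 3 untreated libraries and 0 later. EPSTI1 had 1, 1 and 3 counts, and LAMP3 1, 1 and 0, at 0 h, 12 h and 24 h. IFI27 had 3, 10 and 13 counts. IFI6, IFI35, IFI44 and PLSCR1 were measurable there, with 19 counts or more in each library.

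For the first sort, a fold was computed against 3 counts where a condition had none. XAF1 was then at least 745-fold higher in untreated HCC1937-OE-BRCA1, at least 1624-fold at 12 h and at least 1665-fold at 24 h. IFI44L was at least 5472-fold higher at 12 h and at least 7163-fold at 24 h, and LAMP3 at least 4323-fold at 24 h. With 3 counts in untreated HCC1937-EV, the ratio for IFI27 was 5248 (95% exact interval 1795 to 25451, counting error only) and that for IFI44L 3186 (1090 to 15451). LAMP3 had a ratio of 4786 on 1 count (859 to 189067) and EPSTI1 of 3626 (650 to 143276). These intervals are wide because the lower level rests on 1 to 3 counts.

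The second sort differed by less. IFI6 was 252-fold higher in untreated HCC1937-OE-BRCA1 (log2 7.98 ± 0.33, SE), IFI44 was 100.1-fold higher (6.65 ± 0.16), PLSCR1 22.0-fold (4.46 ± 0.11) and IFI35 5.94-fold (2.57 ± 0.16). Their adjusted p lay between 1.15e-18 and 8.95e-12. The median gene differed by 0.11 on the same log2 scale. With time the gap widened for PLSCR1, to 44.9-fold at 24 h, and narrowed for IFI6, to 85.6-fold, both by differences that were tested and are given further on. The 24 h fold of IFI44 was 111 and that of IFI35 8.72.

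The counts of IFI44 and IFI44L, adjacent in the genome, thus parted in HCC1937-EV. At 24 h its libraries had 52, 57 and 51 counts of IFI44 and none of IFI44L. In HCC1937-OE-BRCA1 at 24 h the same genes had 5562 to 5905 and 6559 to 7422 counts.

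Levels of different genes were compared per length, in TPM, the share of transcripts after division by the exonic length of all GENCODE transcripts of a gene. In untreated HCC1937-OE-BRCA1, IFI6 stood first with 2368 ± 766 TPM, above PLSCR1 with 388 ± 37.9 (SD, n = 3), and their libraries did not overlap. IFI44 (287 ± 55.9 TPM) and IFI27 (274 ± 148 TPM) followed and overlapped each other. IFI35, LAMP3, IFI44L and EPSTI1 came next at mean levels from 118 to 52.1 TPM, each overlapping its neighbour, and XAF1 was last at 24.1 ± 4.73 TPM. This order of the 9 means was the same at 12 h and at 24 h. In untreated HCC1937-EV the order was IFI35 (19.3 ± 0.140 TPM), PLSCR1 (17.1 ± 0.879), IFI6 (9.21 ± 2.69) and IFI44 (2.76 ± 0.753), with no overlap between neighbours. IFI6 passed the other genes there with time, and at 24 h stood first at 36.2 ± 1.10 TPM. The union of exons overstates the length of a gene whose long transcripts are rare, and for IFI44L it reached 10240 bp.

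In HCC1937-OE-BRCA1, 7 of the 9 genes rose by 12 h of olaparib, where 1.7% of all genes tested were called higher, and the same 7 at 24 h, where 4.71% were. IFI6 and IFI27 were not called at either time, and which of them were called without the filter on low counts is given with each. None was called lower, against 0.605% and 3.55% of all genes. Each of the 7 had its 3 treated libraries above its 3 untreated ones at both times, which was not counted over all genes. The median log2 fold change of the 9 was 0.80 at 12 h and 1.07 at 24 h, beside 0.00 and 0.02 over all genes tested.

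**Figure D2:**
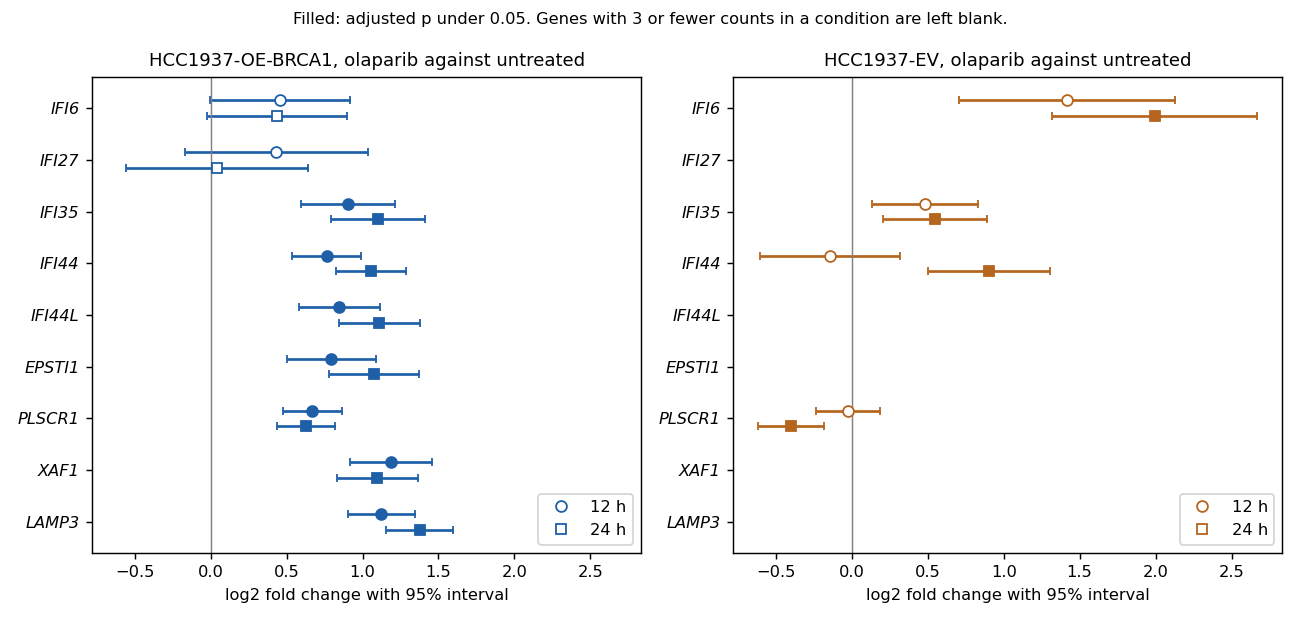
Log2 fold change of each gene against untreated cells of the same line, with its 95% interval, after 12 h (circles) and 24 h (squares) of olaparib. Filled symbols passed an adjusted p of 0.05 in edgeR's quasi-likelihood test, and genes with 3 or fewer counts in a condition are left blank. In HCC1937-OE-BRCA1 7 genes lie between 0.63 and 1.38, whereas IFI6 has the largest rise shown for HCC1937-EV.

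LAMP3, the lysosomal protein, had the largest rise of the 9 at 24 h. Its untreated HCC1937-OE-BRCA1 libraries had 107, 95.6 and 93.7 CPM, the 12 h libraries 208, 217 and 220 and the 24 h libraries 249, 258 and 263. The 3 times did not overlap. The log2 fold change was 1.12 ± 0.10 (SE, adjusted p = 1.95e-06) after 12 h and 1.38 ± 0.11 (adjusted p = 1.08e-07) after 24 h by edgeR. LAMP3 also marks mature dendritic cells, whose other markers CCR7, CD80 and ITGAX were near 0 in the same libraries, at a summed level of 0.242 to 1.16 CPM.

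XAF1, the partner of XIAP, had 48.6, 38.3 and 51.5 CPM untreated, 104, 101 and 111 CPM at 12 h and 95.1, 92.7 and 108 CPM at 24 h. It had risen by 12 h, and the 12 h and 24 h libraries overlapped. Its log2 fold changes were 1.19 ± 0.13 (SE, adjusted p = 5.48e-05) and 1.10 ± 0.13 (adjusted p = 7.18e-05, edgeR). XIAP itself was not called, at 0.04 and 0.09.

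IFI44L had 236, 186 and 169 CPM untreated, 322, 368 and 372 CPM at 12 h and 403, 416 and 455 CPM at 24 h. Its neighbour IFI44 had 198, 169 and 143 CPM, then 303, 287 and 276, then 342, 363 and 355. All libraries of a later time stood above those of the time before for both genes. IFI44L rose by 0.85 ± 0.13 on the log2 scale at 12 h and 1.11 ± 0.13 at 24 h (adjusted p = 0.000718 and 3.23e-05, edgeR), and IFI44 by 0.76 ± 0.11 and 1.05 ± 0.11 (adjusted p = 0.000210 and 2.90e-06).

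EPSTI1 followed the same course, with 83.4, 77.5 and 63.2 CPM untreated, 133, 128 and 128 CPM at 12 h and 152, 174 and 146 CPM at 24 h. Its log2 fold changes were 0.80 ± 0.14 and 1.07 ± 0.14 (adjusted p = 0.00200 and 5.15e-05, edgeR). The genes IFI44, IFI44L, EPSTI1, LAMP3 and XAF1 thus lay within 0.76 to 1.19 at 12 h.

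PLSCR1, the scramblase, had 516, 514 and 441 CPM untreated, 784, 795 and 762 CPM at 12 h and 768, 781 and 727 CPM at 24 h. Its rise was the smallest of the 7 at both times, 0.67 ± 0.09 and 0.63 ± 0.09 on the log2 scale (adjusted p = 0.000127 and 0.000157, edgeR). IFI35 had 53.4, 83.0 and 68.5 CPM untreated, 143, 123 and 117 CPM at 12 h and 145, 150 and 145 CPM at 24 h. It rose by 0.90 ± 0.15 and 1.10 ± 0.15 (adjusted p = 0.000877 and 6.40e-05).

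IFI6 and IFI27, the 2 relatives, varied most between libraries of one condition in HCC1937-OE-BRCA1. IFI6 had 364, 807 and 642 CPM untreated, 938, 769 and 781 CPM at 12 h and 886, 876 and 693 CPM at 24 h. The treated libraries lay within the range of the untreated ones or above it. Its log2 fold changes were 0.46 (95% interval -0.01 to 0.92, adjusted p = 0.434) and 0.44 (-0.02 to 0.90, adjusted p = 0.241, edgeR), so a rise of the size seen in PLSCR1 lies within both intervals. Untreated replicate 1, the lowest for IFI6 and IFI35, also had the lowest rank correlation of its condition, -0.58 across genes, between GC content and the deviation from the line's mean, against 0.29 and 0.54 in replicates 2 and 3. The longest transcripts of IFI6 and IFI35 have 56.1% and 58.8% GC, the highest of the 9. With an offset for GC content and length IFI6 was called at 24 h (0.53, adjusted p = 0.0167, edgeR) and not at 12 h (0.42, adjusted p = 0.103). Without the filter on low counts it was called at both times (0.44, adjusted p = 0.00903, and 0.39, adjusted p = 0.0143, edgeR). Without untreated replicate 1 its log2 fold changes were 0.19 and 0.17.

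IFI27 had 342, 149 and 487 CPM untreated, 545, 376 and 398 CPM at 12 h and 429, 190 and 388 CPM at 24 h. Replicate 2 was the lowest of its condition at each time. The log2 fold change was 0.43 (95% interval -0.17 to 1.03, adjusted p = 0.633) after 12 h and 0.04 (-0.56 to 0.64, adjusted p = 0.968) after 24 h by edgeR, and leaving out 1 library at a time moved the latter between -0.31 and 0.45. The first interval also holds the 12 h rise of IFI35. Without the filter on low counts IFI27 was called at 12 h (0.42, adjusted p = 0.038, edgeR) and not at 24 h.

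Between 12 h and 24 h in HCC1937-OE-BRCA1, 0 of the 9 genes were called by edgeR's quasi-likelihood test, where 0.791% of all genes were called higher and 0.862% lower. DESeq2's Wald test called 0 as well. At an unadjusted p under 0.05 in edgeR's test there were 2, IFI44 with 0.29 ± 0.11 and LAMP3 with 0.25 ± 0.10 on the log2 scale (SE). Of all 18335 genes tested, 3214 had an unadjusted p under 0.05 in that comparison. IFI35, IFI44, IFI44L, EPSTI1 and LAMP3 had no overlap between the times, which was not counted over all genes. A fit on the libraries of these times alone called IFI44, IFI44L, EPSTI1 and LAMP3. The share of all genes called in that fit was not counted. The rank correlation of GC content with a library's deviation changed sign between these times, from 0.54, 0.17 and 0.21 in the 12 h libraries to -0.28, -0.39 and -0.43 at 24 h. With the offset for GC content and length the changes of IFI44, IFI44L and EPSTI1 were 0.12, 0.07 and 0.15, against 0.29, 0.26 and 0.28 without it, that of LAMP3 was 0.17, and none of these 4 was called. IFI35 alone was called with the offset (0.37, adjusted p = 0.00669, edgeR).

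In HCC1937-EV, 4 genes could be followed over time. None was called at 12 h by edgeR, where 0.0273% of all genes were called higher and 0.0164% lower. An unadjusted p under 0.05 was found in that test for 2963 of the 18335 genes tested, IFI6 and IFI35 among them. At 24 h all 4 were called, IFI6, IFI44 and IFI35 as higher, where 8.62% of all genes were, and PLSCR1 as lower, where 5.12% were. The libraries of 0 h and 24 h did not overlap for any of the 4, which was not counted over all genes.

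**Figure D3:**
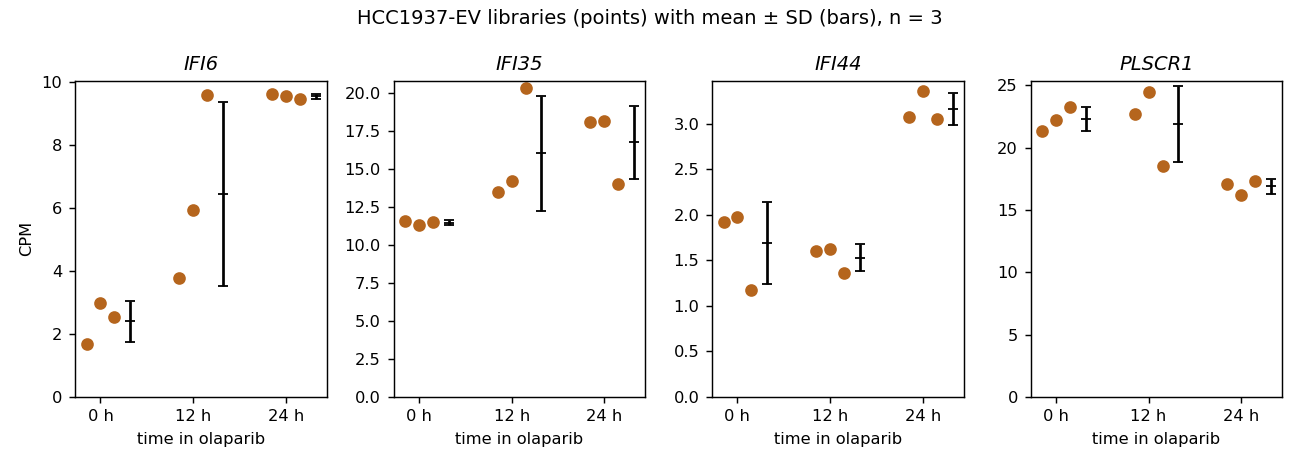
CPM of the 4 genes with measurable counts in HCC1937-EV, against time in olaparib, on linear axes from 0 that differ between panels. Points are libraries and bars are mean ± SD of 3. The IFI6 libraries lie between 1.68 and 2.97 CPM untreated and between 9.47 and 9.62 CPM at 24 h, and PLSCR1 falls from 22.3 to 16.9.

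IFI6 had 1.68, 2.97 and 2.53 CPM untreated, 3.78, 5.94 and 9.57 CPM at 12 h and 9.62, 9.55 and 9.47 CPM at 24 h, the last on 158 to 163 counts a library. Each treated library was above all untreated ones. The rise was 3.98-fold at 24 h (log2 1.99 ± 0.33, SE, adjusted p = 0.00154, edgeR). At 12 h it was 2.67-fold (1.42 ± 0.34) and not called (adjusted p = 0.145, edgeR). DESeq2's Wald test called it (adjusted p = 0.00963). So did edgeR without 12 h replicate 1 (adjusted p = 0.0192) and without the filter on low counts (adjusted p = 2.39e-12). The share of all genes called in these 3 fits was not counted.

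IFI44 had 1.93, 1.98 and 1.17 CPM untreated, 1.60, 1.63 and 1.36 CPM at 12 h and 3.07, 3.36 and 3.06 CPM at 24 h. It was thus higher at 24 h alone, by 0.90 ± 0.19 on the log2 scale against untreated (SE, adjusted p = 0.00722) and by 1.04 ± 0.20 against 12 h (adjusted p = 0.0305, edgeR). The second of these was the 1 call among the genes between 12 h and 24 h, where 0.136% of all genes were called higher and 0.0436% lower. It was lost when any 1 of the 6 libraries was left out, at an adjusted p of 0.0515 to 0.158, and with those libraries alone.

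IFI35 had 11.6, 11.3 and 11.5 CPM untreated, 13.5, 14.3 and 20.4 CPM at 12 h and 18.1, 18.2 and 14.0 CPM at 24 h. It was higher at 24 h by 0.55 ± 0.17 on the log2 scale (SE, adjusted p = 0.0345, edgeR). PLSCR1 had 21.4, 22.3 and 23.3 CPM untreated, 22.7, 24.4 and 18.5 CPM at 12 h and 17.1, 16.2 and 17.3 CPM at 24 h, lower at 24 h by a log2 fold change of -0.40 ± 0.10 (adjusted p = 0.0164). Both calls were close to the threshold. That of IFI35 was kept in 1 and that of PLSCR1 in 2 of 6 fits that left out 1 library.

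The GC content of genes moved with time in HCC1937-EV. The rank correlation of GC content with a library's deviation was between -0.58 and -0.22 in the 3 untreated libraries, at -0.58, -0.21 and 0.64 at 12 h and between 0.27 and 0.61 at 24 h. The 12 h library at 0.64, replicate 3, was also the highest for IFI6 and IFI35 and the lowest for PLSCR1. IFI6 and IFI35 are GC-rich, whereas PLSCR1 (39.6%) and IFI44 (39.1%) are not. With an offset for GC content and length, IFI6 (1.74, adjusted p = 0.00034) and IFI44 (1.0001, adjusted p = 0.000573) were called at 24 h, and IFI35 (0.22, adjusted p = 0.146) and PLSCR1 (-0.23, adjusted p = 0.0745, edgeR) were not.

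IFI27 in HCC1937-EV rested on 3, 10 and 13 counts. Its level at 24 h against untreated had a ratio of 4.15 (95% exact interval 1.14 to 22.7) and at 12 h of 3.49 (0.898 to 19.7), intervals that cover counting error only. IFI27L1, its neighbour and relative, was called higher in HCC1937-EV at 24 h (log2 1.37 ± 0.35, SE, adjusted p = 0.0149, edgeR), from 3.13 ± 0.189 to 8.14 ± 1.48 CPM (SD, n = 3).

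Whether the response differed between the lines was tested for the same 4 genes, as the log2 fold change in HCC1937-OE-BRCA1 minus that in HCC1937-EV. PLSCR1 responded differently at both times, by 0.70 ± 0.14 (SE, adjusted p = 0.0179) after 12 h and by 1.03 ± 0.14 (adjusted p = 0.000136) after 24 h in edgeR's test, rising in one line and not called or lower in the other. These were among 0.376% and 8.16% of all genes with a positive difference called. IFI6 went the other way. Its rise was smaller in HCC1937-OE-BRCA1 at 24 h by 1.56 on the log2 scale (difference -1.56 ± 0.40, adjusted p = 0.0105), where 11.2% of all genes had a negative difference called, and at 12 h the difference was -0.96 ± 0.41 (adjusted p = 0.285, negative calls 0.142%). With the GC and length offset the 24 h differences were 0.72 for PLSCR1 (adjusted p = 0.000167) and -1.21 for IFI6 (adjusted p = 0.0095).

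For IFI35 and IFI44 the differences were not called. At 24 h that of IFI44 was 0.15 (95% interval -0.32 to 0.63) and that of IFI35 0.55 (0.09 to 1.02, adjusted p = 0.0831). At 12 h IFI44 differed by 0.91 (0.39 to 1.42, adjusted p = 0.111) and IFI35 by 0.42 (-0.04 to 0.89). With the offset for GC content and length both were called at 12 h by edgeR, IFI44 with 1.02 (adjusted p = 0.0083) and IFI35 with 0.61 (adjusted p = 0.00859), and IFI35 also at 24 h with 1.01 (adjusted p = 1.39e-05). Without the filter on low counts IFI44 (0.90, adjusted p = 0.0364) and IFI6 (-0.97, adjusted p = 0.000786, edgeR) were called at 12 h, and IFI35 was not. XAF1, IFI44L, EPSTI1, LAMP3 and IFI27 were too low in HCC1937-EV for a difference to be read.

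Other interferon-stimulated genes, a list of 56 of which 55 were tested, were set beside the 9 genes. In HCC1937-OE-BRCA1, 46 of the 55 were called higher at 12 h and 48 at 24 h, and 0 lower by edgeR. Of all genes tested, 1.7% and 4.71% were called higher and 0.605% and 3.55% lower. The median log2 fold changes were 0.87 and 0.97. The antiviral genes IFIT2 (1.99 and 2.46) and RSAD2 (2.23 and 2.13) rose more than any of the 9 genes at the same time. Not all of the list moved, for BST2, which tethers virus particles, stood at 0.08 and 0.02, uncalled like IFI27.

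**Figure D4:**
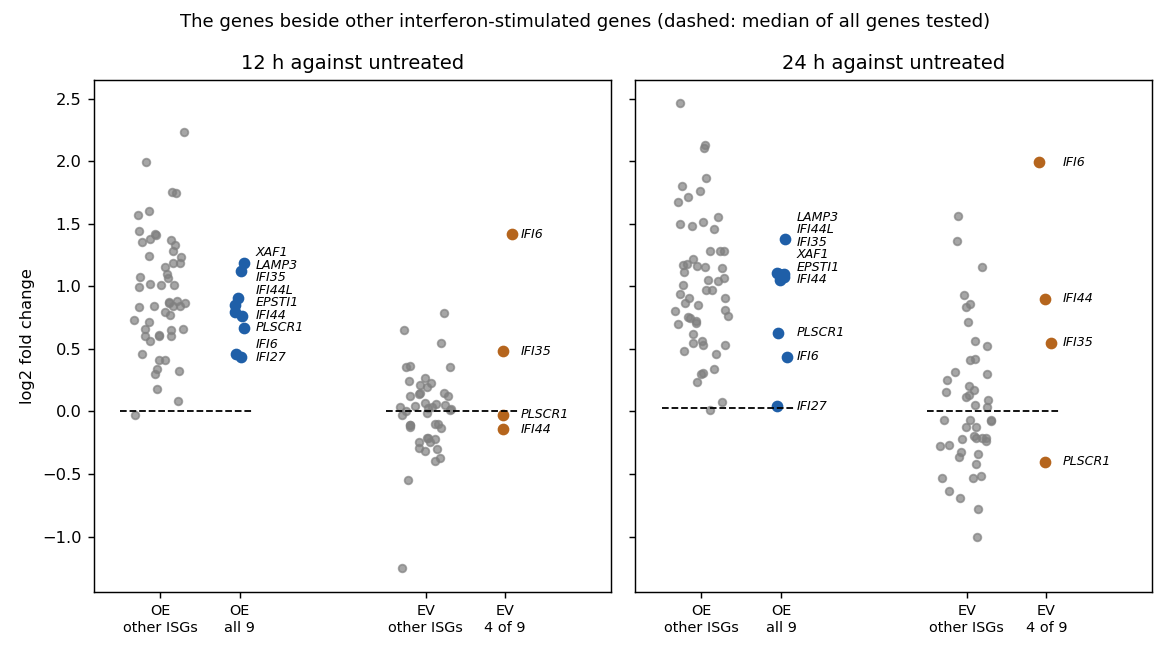
Log2 fold change against untreated cells at 12 h (left) and 24 h (right), for the 9 genes (coloured, named) and other interferon-stimulated genes (grey) in each line. Dashed lines give the median of all genes tested, and genes with 3 or fewer counts in a condition are left out. In HCC1937-EV at 24 h IFI6, at 1.99, stands above every grey point, the highest being OASL at 1.56.

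In HCC1937-EV, 0 of the 46 listed genes with more than 3 counts in each condition were called at 12 h by edgeR. Of all genes tested, 0.0273% were called higher then and 0.0164% lower. At 24 h 9 of 47 were called higher and 5 lower, where 8.62% and 5.12% of all genes were. These shares of all genes include genes with 3 or fewer counts in a condition, which the 46 and 47 do not. The median of the 47 was -0.07. OASL (1.56 ± 0.12), DHX58 (1.37 ± 0.45), IFIT2 (1.16 ± 0.13) and IFITM1 (0.93 ± 0.15, SE) were the highest, and IFI16 (-0.78) and PHF11 (-0.69) the lowest of those called. IFI6 with 1.99 and IFI44 with 0.90 thus stood beside a part of the list in which other members fell, as PLSCR1 did.

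Of the 22 genes of interferon signalling, 6 of which are on that list too, 19 were tested. In HCC1937-OE-BRCA1 6 were called higher at 12 h and 8 at 24 h, where 1.7% and 4.71% of all genes were. Called lower were 0, against 0.605% and 3.55% of all genes. Those called higher included STAT2 (1.33 ± 0.08 and 1.28 ± 0.08, SE), a subunit of the factor that binds the promoter repeat. Its partner IRF9 was not called (-0.03 and 0.62, on 51 to 81 counts a condition). In HCC1937-EV neither was called at 12 h or 24 h, with STAT2 at 0.03 and 0.11. The kinases parted in HCC1937-EV at 24 h, JAK1 lower (-0.34 ± 0.10, adjusted p = 0.0305) and TYK2 higher (0.43 ± 0.11, adjusted p = 0.0180, edgeR). The GC trend of HCC1937-EV moved between these times too. Its part in the changes of these and other listed genes was not tested. JAK1 was lower in untreated HCC1937-OE-BRCA1 than in HCC1937-EV, at -2.57 ± 0.11, while the 9 genes were higher.

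Of 12 family and partner genes 8 were tested. In HCC1937-OE-BRCA1 0 were called at 12 h and 2 higher at 24 h, where 1.7% and 4.71% of all genes were called higher. The 2 were PLSCR4 (0.66 ± 0.16, SE, adjusted p = 0.0118), a scramblase relative of PLSCR1, and NMI (0.50 ± 0.13, adjusted p = 0.0209, edgeR), the partner of IFI35. LAMP1 and LAMP2, lysosomal relatives of LAMP3, stood at 0.06 and 0.24 at 24 h and were not called. LAMP1 was at 433 ± 27.3 and 445 ± 4.19 CPM in the untreated lines (SD, n = 3), where LAMP3 was at 98.7 in one and at 1 count in the other. IFI27L2, on the other side of IFI27, had 10.8 ± 3.53 CPM in untreated HCC1937-OE-BRCA1 and 0 counts in untreated HCC1937-EV.

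For each gene the one outside gene with the nearest profile was found among 16559 genes, by the root mean square difference of centred log2 CPM over the 6 condition means. XAF1 was nearest to RTP4 (0.18), LAMP3 to CMPK2 (0.16) and IFI44L to UBE2L6 (0.15), all 3 on the list of interferon-stimulated genes. Of the others, whose nearest genes were not on it, IFI35 was nearest to SPIB (0.12), PLSCR1 to ST8SIA1 (0.10), EPSTI1 to LY6D (0.19), IFI27 to CDH3 (0.28) and IFI6 to PARP10 (0.30). The distance was largest for IFI6 and IFI27. The 6 points of a profile include the difference between the lines, which all 9 genes share. The log2 CPM held a prior count of 2, which shrinks differences at low levels. SPIB had 0.0207 and 0.785 CPM in untreated HCC1937-EV and HCC1937-OE-BRCA1, where IFI35 had 11.5 and 68.3. ST8SIA1 had 0.165 and 5.87 CPM, where PLSCR1 had 22.3 and 490. A small distance to these 2 genes is therefore not a like fold between the lines.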

How the data were processed

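The authors prepared RNA-seq libraries from TRIzol-extracted RNA with the NEBNext Ultra II kit. GEO's processing notes name HISAT2, featureCounts, DESeq2 and GRCh38 (hg38), without versions. The annotation and strand setting are not given in the sources used here. The deposited values are unnormalized counts of reads on each gene, and each of the 18 single-library tables equalled its column of the joint table. Libraries were grouped by line and time from the sample titles.

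Counts were analysed with edgeR 4.0.16 in R 4.3.3 (TMM, filterByExpr by condition, quasi-likelihood test, 1 mean per condition over 18 libraries), with code tested on simulated data. The table pairs no names with identifiers. Symbols came from a table of Ensembl identifiers (99.78% matched), positions from GENCODE 29 (96.7% found). A condition with 0 counts was given 3 counts over its 3 libraries. CPM used TMM library sizes. Between replicates chi-square per degree of freedom was 3.07 or more, so they differed by more than counting error. This cannot tell separate cultures from separate preparations of the same culture. The genes, lists and tests were chosen with earlier results of these data known. The text names the 9 genes, the nearest profile of each except IFI44, whose nearest gene is not reported here, and up to 4 examples of a list, plus those named beside a result after their values were seen. Alternatives were DESeq2 1.42.0 size factors and Wald test, no filter, compared libraries alone, a replicate block, an offset for GC content and length, and each library left out.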

Additional observations from a re-analysis of the deposited data

Results flagged for a closer look

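3 differences in response between the lines passed the test of the difference itself (edgeR's quasi-likelihood test, adjusted over all genes), with 3 libraries in each of the 4 conditions. PLSCR1 changed more in HCC1937-OE-BRCA1 than in HCC1937-EV by 0.70 on the log2 scale at 12 h (adjusted p = 0.0179) and by 1.03 at 24 h (adjusted p = 0.000136). At 24 h all 3 treated libraries were above the untreated ones in HCC1937-OE-BRCA1 and all 3 were below them in HCC1937-EV. IFI6 changed less in HCC1937-OE-BRCA1 at 24 h, with a difference of -1.56 (adjusted p = 0.0105), where its level was 818 CPM against 9.55 CPM in HCC1937-EV. Leaving out 1 library at a time gave 0.96 to 1.07 for PLSCR1 and -1.82 to -1.29 for IFI6 at 24 h, called in 12 of 12 fits each, and 0.59 to 0.78 for PLSCR1 at 12 h, called in 9 of 12. The lines also differ in GC trend over time, with the values given beside the results, and its part in the differences beyond the offset was not tested.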

How the results depend on the processing

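The 7 genes called in HCC1937-OE-BRCA1 at 12 h and at 24 h and the 9 called between the lines were not lost under any alternative run. Calls were gained in HCC1937-OE-BRCA1, to 9 at 12 h and 8 at 24 h without the filter on low counts, where IFI6 joined at both times and IFI27 at 12 h, and to 8 at 24 h with the GC and length offset, where IFI6 did. Between 12 h and 24 h in HCC1937-OE-BRCA1 the count of 0 became 1 without the filter on low counts, 1 with the GC and length offset (alone or with the replicate block) and 4 with the compared libraries alone, and stayed at 0 in each fit without 1 library. In HCC1937-EV the count at 12 h, 0, became 2 without the filter and 1 by DESeq2's Wald test, and was 0 to 1 with 1 library left out. At 24 h the count of 4 became 2 with the GC and length offset, alone or with the replicate block, and was 2 to 4 with 1 library left out, at 2 without untreated replicate 1 or 3 or 24 h replicate 1 or 2. Between 12 h and 24 h the 1 call became 2 without the filter and 0 with the compared libraries alone, and was 0 to 1 with 1 left out. The count of differing responses at 12 h, 1, became 3 without the filter and 3 with the GC and length offset (alone or with the replicate block), and 0 with the compared libraries alone. It was 0 to 3 with 1 library left out, 0 without untreated HCC1937-EV replicate 2 or HCC1937-OE-BRCA1 12 h replicate 2 and 3 without untreated HCC1937-OE-BRCA1 replicate 1. At 24 h it was 2 to 3. Fewer samples or other genes tested enter these fits by construction, and the cause was not tested otherwise. The share of all genes called was counted for the main fit alone. Whether an alternative that gained calls also called more of all genes is therefore not known here.

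Values near 0 changed sign. IFI27 in HCC1937-OE-BRCA1 at 24 h became -0.0079 without the filter and -0.0084 with the GC and length offset, and -0.31 to 0.45 with 1 library left out (-0.3056 without untreated replicate 2, -0.1749 and -0.0769 without 24 h replicate 1 or 3). IFI6 at 24 h against 12 h there became 0.1078 with the offset, 0.1061 with the replicate block too, and 0.0763 or 0.0923 without 12 h replicate 1 or 24 h replicate 3 (range -0.0756 to 0.0923). In HCC1937-EV, PLSCR1 at 12 h became 0.015 with the offset, 0.0142 with the replicate block too and 0.073 without 12 h replicate 3 (range -0.1177 to 0.073). IFI35 at 24 h against 12 h became -0.0349 with the offset, -0.0373 with the replicate block too, and -0.042 or -0.0205 without 12 h replicate 1 or 2 (range -0.042 to 0.2785). IFI27 there became -0.0462 without 12 h replicate 2 (range -0.0462 to 0.4266). The 24 h difference of IFI44 between the lines became -0.0412 with the offset and -0.0401 with the replicate block too. Of 853 recomputed fold changes of the genes, 780 kept direction and side of the threshold, 30 passed it, 24 lost it and 19 changed sign. Levels in CPM by plain library totals moved by more than 1 SD in 4 of 41 cases.

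Same-numbered libraries of different conditions had correlated deviations of -0.23 to 0.30 over 45 pairs, 5 of them over 0.1. Most pairs thus shared little deviation, which cannot settle whether same-numbered libraries were prepared together. With the replicate block alone the counts were 7 and 7 in HCC1937-OE-BRCA1 and 4 at 24 h in HCC1937-EV. Depth limits XAF1, IFI44L, EPSTI1, LAMP3 and IFI27 in HCC1937-EV, where a change could not be read from 0 to 13 counts a condition.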
